A study of Mus musculus with 5 samples.

Results

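The genes described are those of the 4 Hox clusters, Hoxa to Hoxd, as measured in mouse NT2.5 mammary tumour cells and in bone and liver sub-lines of them. They were chosen by name alone, as genes with a symbol made of Hox, a cluster letter from a to d and a number. Of 39 such genes in RefSeq, 33 had a probe set annotated to that gene only, among 18193 genes measured in this way. They were 9 of 11 Hoxa genes, 9 of 10 Hoxb genes, 7 of 9 Hoxc genes and 8 of 9 Hoxd genes. The others were not analysed here.

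NT2.5 is a cell line from a mammary tumour of mice that carry the neu oncogene under a mammary promoter. The 5 arrays held 1 RNA sample each. The parental cells are labelled as wild type NT2.5, with bone, liver and lung as their preferred metastatic sites. Bone-derived cells were taken at an early passage, 3, and a final passage, 6. Liver-derived cells were taken early, at passage 1, and finally at passage 3. All samples share the parental line and its oncogene, and the labels name no further treatment. Each sub-line is 1 lineage, so its passages stand in for replicates. Every p-value reflects just how the passages within a sub-line varied, which can hold both differences between passages and technical variation.

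Hox genes encode homeodomain transcription factors that give cells their position along the body axis. They lie in clusters in which the order of the genes follows the order of their domains from head to tail, and genes of the same number in different clusters are paralogs of similar sequence. Trithorax proteins keep Hox genes active and Polycomb proteins keep them silent, so that adult cells tend to hold the pattern of the site they came from. In the mammary gland, several Hox genes act in duct and alveolus formation, and Hoxa5 is studied in breast cancer as an activator of the tumour suppressor p53.

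The values are intensities of 1 probe set per gene on a linear scale, which the authors deposited without detection calls. A gene was therefore called on in an array when its intensity was above the 95th percentile of 57 genes restricted to other tissues, such as retina, pancreas, heart, muscle, germ cells and pituitary. That bound was 58.4 in the parental array, 56.3 and 44.7 in bone passages 3 and 6, and 42.5 and 61.2 in liver passages 1 and 3. It is a description of level and not a test. The share of all measured genes above the bound was not counted, so counts of genes on have no background beside them. The 75th percentile of all probe sets was 146 to 160, above the bound on each array. The median of all probe sets was 21.9 to 26.4 and the mean after trimming was the same on all 5 arrays, so the arrays had been scaled alike. The brightest of the 57 reference genes, oxytocin (Oxt), read 235 to 295.

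Of the 4 clusters, Hoxa alone held genes above the bound. Hoxa3, Hoxa4 and Hoxa5 were on in the parental cells and in all 4 sub-line arrays. The calls of Hoxa3 and Hoxa4 were lost when all probe sets of a gene were averaged, with a bound of 100 and with the 75th percentile of all probe sets as the bound, and those of all 3 with the brightest reference gene as the bound. Hoxa2, which lies next to Hoxa3, was on in the 4 sub-line arrays and just below the bound in parental cells. Its parental intensity, 53.5, was above the 46.7 of bone passage 6, where the bound was lower (44.7 against 58.4). Hoxa9 was on in liver passage 3 only. The other 28 measured Hox genes, with all 9 of Hoxb, all 7 of Hoxc and all 8 of Hoxd, stayed below the bound on every array. In RefSeq order the genes that were on in at least 4 arrays form 1 block of neighbours, Hoxa2 to Hoxa5, toward the anterior end of the cluster. This block depends on the bound and the probe sets used. With probe sets averaged, Hoxa2 and Hoxa5 were on in all 5 arrays and Hoxa3 and Hoxa4 between them were not. With a bound of 100 or the 75th percentile of all probe sets, Hoxa5 alone was. Hoxa6, between Hoxa5 and Hoxa7, was not analysed here.

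**Figure D1:**
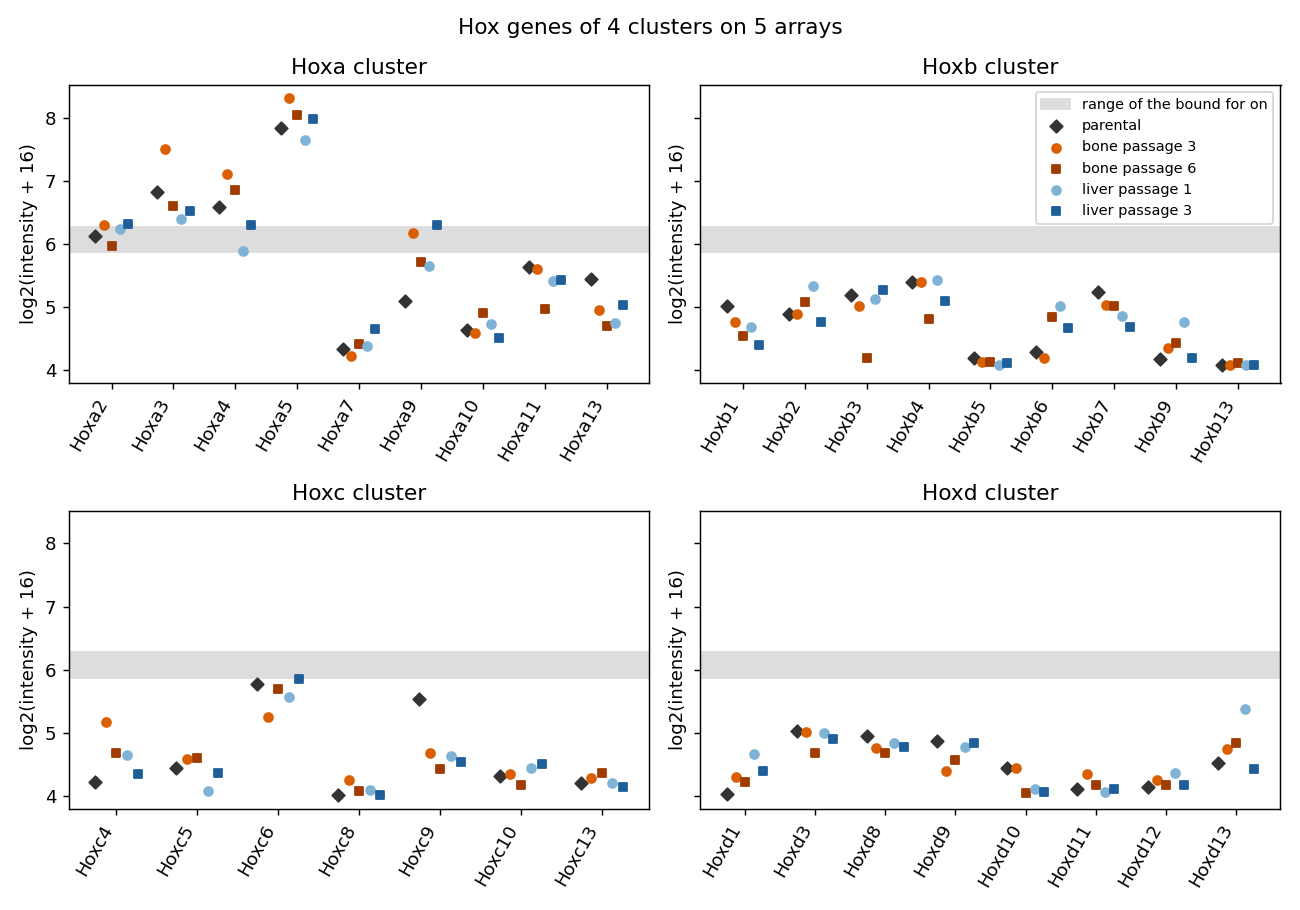
Intensities of the 33 measured Hox genes, by cluster and paralog number, as log2(intensity + 16) on each of the 5 arrays (points). The grey band spans the bound for on across the arrays (42.5 to 61.2): Hoxa3, Hoxa4 and Hoxa5 lie above their own array's bound on all 5, and no gene of Hoxb, Hoxc or Hoxd does on any.

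The promoters of these neighbours are shown because genes on and below the bound lie side by side there. Of the 33 measured genes, 19 had a window in the RefSeq promoter table (GRCm38.p6), which covers 250 bases before and 50 after the annotated start. Hoxa4 is not in it. The window of Hoxa3 is at a distant start, which lies past the windows of Hoxa5 and Hoxa6 and next to that of Hoxa7. Given 5′ to 3′ on the strand of the gene, with each CpG in capitals, the windows of 3 genes above the bound and of the neighbour below it read as follows.
Hoxa2 (chr6:52164782-52165081, minus strand): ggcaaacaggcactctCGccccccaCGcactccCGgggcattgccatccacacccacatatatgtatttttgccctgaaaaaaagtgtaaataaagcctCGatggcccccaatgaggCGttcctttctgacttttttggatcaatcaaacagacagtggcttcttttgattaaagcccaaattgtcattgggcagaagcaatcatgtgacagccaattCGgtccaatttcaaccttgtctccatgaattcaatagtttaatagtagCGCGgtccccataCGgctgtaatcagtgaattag
Hoxa3 (chr6:52213018-52213317, minus strand): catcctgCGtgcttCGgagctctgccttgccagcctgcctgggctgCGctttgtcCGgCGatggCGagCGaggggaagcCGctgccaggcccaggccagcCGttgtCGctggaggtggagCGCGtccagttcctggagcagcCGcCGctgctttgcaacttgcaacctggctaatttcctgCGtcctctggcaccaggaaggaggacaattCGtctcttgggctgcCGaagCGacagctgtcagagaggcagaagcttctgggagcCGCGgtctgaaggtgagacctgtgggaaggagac
Hoxa5 (chr6:52204538-52204837, minus strand): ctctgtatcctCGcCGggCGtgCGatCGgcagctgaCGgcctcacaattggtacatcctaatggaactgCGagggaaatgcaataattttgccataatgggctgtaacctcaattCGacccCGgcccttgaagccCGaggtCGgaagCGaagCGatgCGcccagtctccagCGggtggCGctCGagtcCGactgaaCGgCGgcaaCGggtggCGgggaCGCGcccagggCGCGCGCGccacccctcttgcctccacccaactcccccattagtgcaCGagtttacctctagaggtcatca
Hoxa7 (chr6:52218524-52218823, minus strand): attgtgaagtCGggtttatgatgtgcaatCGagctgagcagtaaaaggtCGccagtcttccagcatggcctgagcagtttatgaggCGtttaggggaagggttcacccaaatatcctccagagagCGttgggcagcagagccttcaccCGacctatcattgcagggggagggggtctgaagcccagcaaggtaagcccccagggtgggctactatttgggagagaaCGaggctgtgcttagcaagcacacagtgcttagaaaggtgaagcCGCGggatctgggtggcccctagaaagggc
Windows of Hoxa3 and Hoxa5 held 20 and 29 CpGs, those of Hoxa2 and Hoxa7 held 9 each, and the median of all 32851 windows was 7. At least 20 CpGs were found in 11 of the 24 Hox windows, which belong to 22 genes, and in 26.5% of all windows. The windows of Hoxa13 and Hoxd13, both genes below the bound, held 45 and 37. The CCAAT box, searched as CCAAT on both strands, occurred 4 times in the Hoxa2 window, 1 time in that of Hoxa5 and 0 times in those of Hoxa3 and Hoxa7. It was present in 15 of 24 Hox windows and in 37.4% of all windows. The TATA box TATAAA was in none of the 4 printed windows, in 4 of the 24 Hox windows and in 13.6% of all. A match to TGATNNAT, the site bound by Hox proteins together with Pbx proteins, was in the Hoxa2 window and in 4 of 24 Hox windows, against 8.85% of all windows. Motifs were counted without regard to overlap with one another, and a match is a description of the sequence only.

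Hoxa5 stood furthest above the bound on each array. Its intensity was 212 in parental cells, 300.3 and 248.5 in bone passages 3 and 6, and 184.3 and 236.3 in liver passages 1 and 3. These values were 3.63 to 5.55 times the bound of their array, and both bone arrays lay above both liver arrays and the parental array. Hoxa3, a gene of the pharyngeal arches and of thymus formation, had intensities of 97.0 in parental cells, 165.5 and 81.3 in the bone passages and 68.4 and 75.4 in the liver passages. Bone passage 3 stood apart, while bone passage 6 lay close to liver passage 3. Hoxa4, its neighbour, had 79.6 in parental cells, 122.2 and 99.6 in the bone passages and 43.2 and 62.7 in the liver passages. Bone was high, parental intermediate and liver low with no overlap, and in the liver passages Hoxa4 was 1.02 times the bound of its array.

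Hoxa2, a gene of the hindbrain and the second pharyngeal arch, was the steadiest of the genes that were on, with 53.5 in parental cells, 62.3 and 46.7 in bone passages 3 and 6 and 59.5 and 64 in liver passages 1 and 3. The bone and liver values overlapped, and its highest and lowest arrays were 0.35 apart on the log2(intensity + 16) scale. Hoxa9, a gene of blood progenitors and leukaemia, had 18.1 in parental cells, 55.9 and 36.6 in the bone passages and 34.3 and 62.8 in the liver passages. All 4 sub-line arrays were above the parental one, bone passage 3 lay at 0.994 times its bound, and bone and liver overlapped.

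**Figure D2:**
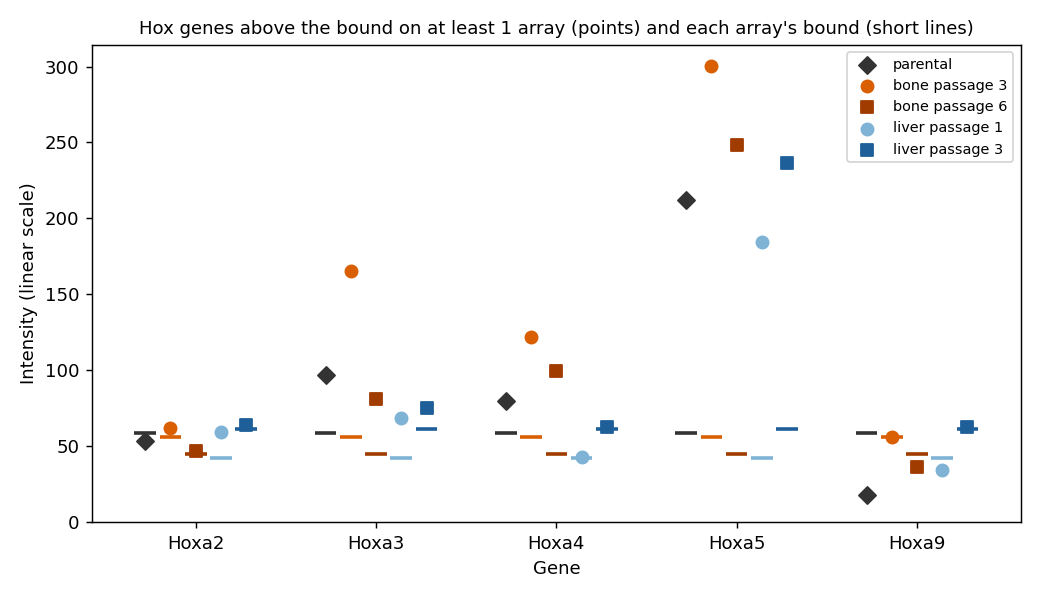
Intensity (linear scale) of the 5 Hox genes that were on in at least 1 array, with 1 point per array and a short line at the bound of that array. Hoxa5 sits between 184.3 and 300.3, clear of every bound, while Hoxa2, Hoxa9 and the liver values of Hoxa4 lie near it.

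Apart from Hoxa9, which was on in 1 array, the measured genes toward the posterior end of Hoxa were below the bound on every array. In parental cells Hoxa9 (18.1) read lower than Hoxa11 (33.5) and Hoxa13 (27.5). Hoxa7 had intensities of 2.6 to 9.0 over the 5 arrays and Hoxa10 of 6.8 to 13.9. Hoxa11 and Hoxa13, which pattern limbs and the urogenital tract, had 15.3 to 33.5 and 9.8 to 27.5. The Hoxb genes ranged from 0.9 to 27.1 with a median of 11.1. Of the anterior ones, Hoxb1 and Hoxb2, which act in the hindbrain, read 5 to 16.3 and 11.2 to 24.1, and Hoxb3 read 2.3 to 22.6. Hoxb4, a gene of blood stem cells, read 11.9 to 27.1. Hoxb5 and Hoxb6 read 0.9 to 2.3 and 2.3 to 16.3, Hoxb7, studied in breast cancer, 9.7 to 21.7, and Hoxb9 2 to 11.1. Hoxb13, a gene of the prostate and tail bud, had 0.9 to 1.3. The Hoxc genes ranged from 0.1 to 41.5 with a median of 5.5. Hoxc6 read 38.5 in parental cells, 22.2 and 35.9 in bone passages 3 and 6 and 31.4 and 41.5 in liver passages 1 and 3. A second Hoxc6 probe set read 46.5 in bone passage 6, above that array's bound of 44.7, and below the bound on the other 4 arrays. Hoxc9 had 30.3 in parental cells, 9.7 and 5.5 in the bone passages and 8.7 and 7.2 in the liver passages, so the parental value stood alone but below its bound. Hoxc4 and Hoxc5 read 2.6 to 20.1 and 0.8 to 8.2, Hoxc8 and Hoxc10 read 0.1 to 3 and 2 to 6.7, and Hoxc13, a gene of hair and nails, read 1.7 to 4.5. The Hoxd genes ranged from 0.3 to 25.6 with a median of 5.8. Hoxd1 and Hoxd3 read 0.3 to 9.3 and 9.6 to 16.7, and Hoxd8 and Hoxd9 read 9.7 to 14.7 and 5 to 13.3. Of the limb genes at the posterior end, Hoxd10 read 0.5 to 5.8, Hoxd11 0.7 to 4.3, Hoxd12 1.6 to 4.5 and Hoxd13 5.5 to 25.6. The 28 genes never on had a median of 6.35 to 10.1 per array, against 10.6 to 15 for the tissue-restricted genes. No order between genes is read from these values. The 8 probe sets annotated to 2 Hox genes or to an antisense transcript of a cluster were below the bound on every array.

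Whether the pattern differed between the lines was tested with limma on log2(intensity + 16), comparing the lines, with p-values adjusted by Benjamini and Hochberg's method across 12609 genes. Only 12 of the 33 Hox genes had a probe set that reached the filter on low values in at least 1 array. They were 7 of Hoxa, 2 of Hoxb, 2 of Hoxc and 1 of Hoxd, so the tests say nothing of the remaining 21. For bone against liver, limma called 0 of the 12 genes at an adjusted p under 0.05, where it called 0.190% of all genes, and 2 had an unadjusted p under 0.05 (14.1% of all genes). For bone against parental cells it called 0 of 12 (0.135% of all genes), with 3 at an unadjusted p under 0.05 (8.17%). For liver against parental cells it called 0 of 12 (0.0159%), with 2 at an unadjusted p under 0.05 (7.49%). Of the 12 genes, 4 reached the filter on 1 array only: Hoxa13 and Hoxc9 on the parental array, Hoxb3 on liver passage 3 and Hoxd13 on liver passage 1. Hoxa9 reached it on the 4 sub-line arrays and not on the parental one. The genes with an unadjusted p under 0.05 were Hoxa4 and Hoxb3 for bone against liver, Hoxa9, Hoxa13 and Hoxc9 for bone against parental cells, and Hoxa9 and Hoxc9 for liver against parental cells. All of them but Hoxa4 thus entered through the side on which they were high, so their counts here and below support no difference. With 2 residual degrees of freedom, these counts do not show that the lines were alike, and the intervals below give the sizes that the data allow.

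Hoxa4 had the largest difference between bone and liver, 0.89 ± 0.22 (log2, SE, n = 2 passages per sub-line), or 1.85-fold, with a 95% interval of 0.35 to 1.43 (limma adjusted p = 0.189). Its limma adjusted p was 0.100 to 0.281 over the alternative settings that left out no sub-line array. Bone was above liver in all 13 alternative settings. Both bone values were above both liver values, so leaving out an array or changing the pseudocount could not change that sign. The count of settings is therefore no added support. Against parental cells it was 0.40 ± 0.27 in bone (limma adjusted p = 0.796) and -0.49 ± 0.27 in liver (limma adjusted p = 0.763). Hoxa3 was 0.60 ± 0.31 between bone and liver, with an interval of -0.16 to 1.35 (limma adjusted p = 0.440). Hoxa5 was 0.36 ± 0.21, with an interval of -0.15 to 0.88 (limma adjusted p = 0.487). Hoxa2 was -0.15 ± 0.20, with an interval of -0.63 to 0.33 (limma adjusted p = 0.764).

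Hoxa9 was 0.85 ± 0.35 in bone and 0.88 ± 0.35 in liver against parental cells (n = 2 passages against 1 array; limma adjusted p = 0.608 and 0.650). Both differences share the 1 parental array. Hoxc9, which was below the bound throughout and was tested only because its parental value reached the filter, had -0.98 ± 0.23 and -0.95 ± 0.23 in the same comparisons (limma adjusted p = 0.305 and 0.396). Hoxb3 was tested on its probe set that reached the filter through liver passage 3 alone (30.2, against 4.1 to 10.3 on the other arrays), and had -0.74 ± 0.29 between bone and liver (limma adjusted p = 0.338). The median over the 12 genes was -0.09 for bone against liver, beside -0.02 over all genes tested.

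**Figure D3:**
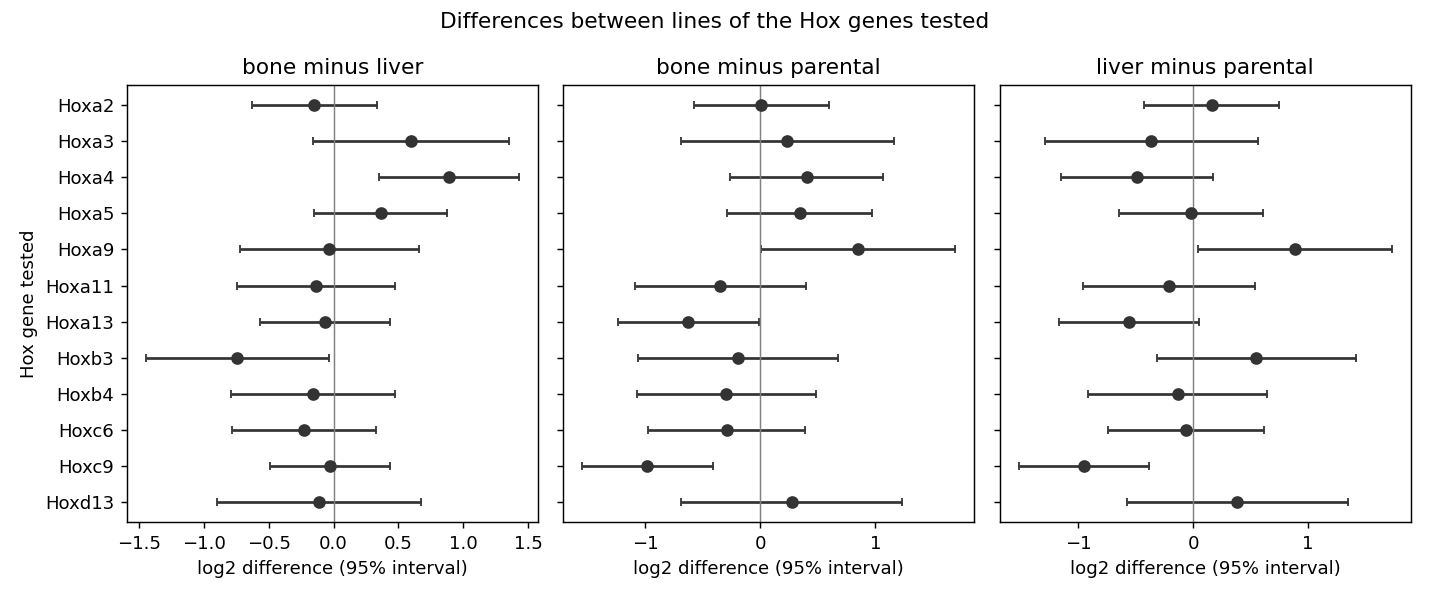
Log2 differences between lines of the 12 Hox genes tested, on the log2(intensity + 16) scale, with 95% intervals from limma. Of the bone minus liver intervals, that of Hoxa4 (0.35 to 1.43) lies above 0 and that of Hoxb3 below it, and neither gene passed the adjusted threshold.

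Without overlap, both bone arrays were above both liver arrays for 3 of the 12 genes, Hoxa3, Hoxa4 and Hoxa5, where this holds for 21.2% of all genes tested. Both were below for 1 gene, Hoxb3 (25.9% of all genes). Against the parental array, both bone arrays were higher for 4 genes, Hoxa4, Hoxa5, Hoxa9 and Hoxd13 (33.5% of all genes), and lower for 5, Hoxa11, Hoxa13, Hoxb3, Hoxc6 and Hoxc9 (37.7%). Both liver arrays were higher than the parental one for 3 genes, Hoxa2, Hoxa9 and Hoxb3 (35.2%), and lower for 5, Hoxa3, Hoxa4, Hoxa11, Hoxa13 and Hoxc9 (32.8%). A 2-fold gap in all pairs of arrays was found for 0 Hox genes between bone and liver (1.06% of all genes), 0 between bone and parental cells (2.14%) and 0 between liver and parental cells (1.80%). Between single arrays, Hoxa4 and Hoxa3 were 2-fold apart between bone passage 3 and liver passage 1, at 0.428-fold and 0.465-fold in liver (5.75% of all genes). At the shared passage 3, Hoxa4 was 0.569-fold and Hoxa3 0.504-fold in liver against bone, short of that limit, and Hoxb3 was the 1 gene past it (4.59% of all genes). Against bone passage 6, 0 genes were 2-fold apart in liver passage 1 (7.07%) and 1, Hoxb3, in liver passage 3 (4.64%). Against the parental array, Hoxa9 was 2-fold apart in bone passage 3 (2.11-fold; 4.36% of all genes) and in liver passage 3 (2.31-fold; 3.89%), Hoxc9 in bone passage 6 (4.64%), and 0 genes in liver passage 1 (4.53%). Within a sub-line 0 of 12 genes were 2-fold apart, either between bone passages 6 and 3 (2.43% of all genes) or between liver passages 3 and 1 (2.81%). Of the 5 genes that were on, Hoxa3 came nearest to it, at 0.536-fold in bone passage 6 against passage 3. Over the 5 arrays, 5 of 12 genes had a range of at least 2-fold (17.2% of all genes), Hoxa3, Hoxa4, Hoxa9, Hoxb3 and Hoxc9. The 5 genes that were on had a median range of 1.10 on the log2 scale, which is the range of Hoxa3 on the probe set used. The median over all genes tested was 0.58, but those genes were not matched to the 5 in level. Hoxa9 is among the 5 through its highest array alone, so no wider variation of Hox genes is read from these medians. That of the 5 genes was 0.524 without bone passage 3.

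Several probe sets measured 11 of the 33 genes. The second Hoxa5 probe set was above the bound on all 5 arrays too, at 115.8 in parental cells, 251.2 and 190.6 in bone passages 3 and 6 and 144.9 and 175.1 in liver passages 1 and 3. Its bone minus liver difference of 0.42 was close to the 0.36 of the probe set used, but its bone minus parental difference of 0.83 was larger than 0.34. The probe set used carries the suffix that the maker gives to probes that may match other transcripts. For Hoxa3, 2 of 4 probe sets were above the bound on all arrays, and the other such set read 103.5 in parental cells, 99.7 and 93.6 in bone and 69.8 and 67.1 in liver. It did not show bone passage 3 standing apart. For Hoxa4 the second probe set was below the bound on all arrays (4.8 to 19), and for Hoxa9 it was too (2 to 7). That second Hoxa9 set read 7 in parental cells and 2 to 2.8 in the sub-line arrays, the opposite direction to the set used. The calls of Hoxa2, Hoxa4 and Hoxa9 therefore each rest on 1 probe set.

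**Figure D4:**
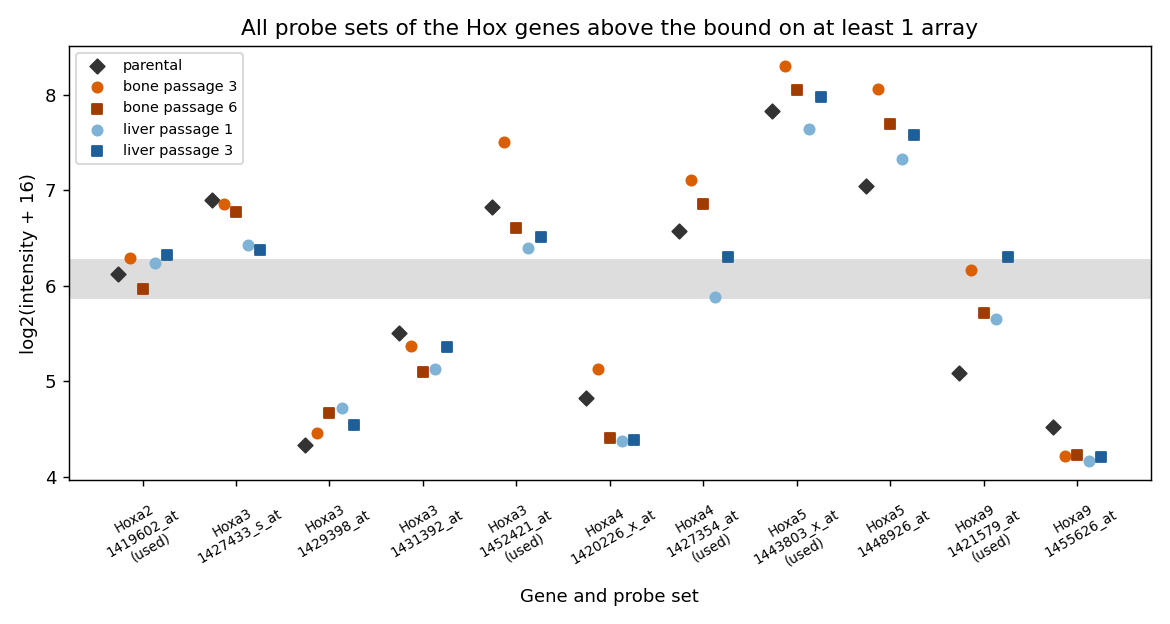
All 11 probe sets of Hoxa2, Hoxa3, Hoxa4, Hoxa5 and Hoxa9 as log2(intensity + 16), with the bound's range in grey and 1 point per array. Both sets of Hoxa5 and 2 of 4 sets of Hoxa3 are above it, against 1 of 2 for Hoxa4.

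Of the nearest genes outside Hoxa, chosen with earlier results known, Skap2 and Hibadh were on in all 5 arrays and Evx1 in none. Skap2, a Src-kinase adaptor gene outside the anterior end of the cluster, had intensities of 789 in parental cells, 1269 and 1084 in bone passages 3 and 6 and 634 and 746 in liver passages 1 and 3. Its bone minus liver difference was 0.76 ± 0.20 (log2, SE; limma adjusted p = 0.201), with bone above liver as for Hoxa4. Evx1, the homeobox gene next to Hoxa13, read 3.1 to 8.7. Hibadh, a valine-breakdown enzyme gene past Evx1, was 0.60 ± 0.18 between bone and liver (limma adjusted p = 0.234). Beside the other clusters, Calcoco1, Smug1 and Mtx2 were on in all 5 arrays, whereas Skap1 and Ttll6, on both sides of Hoxb, were on in none. Evx2, the homeobox gene next to Hoxd13, was on in liver passage 1 only (48.9, against 26.3 to 43.5 on the other arrays). Of 13 flanking genes tested, limma called 0 in each comparison of lines, with 4, 0 and 0 at an unadjusted p under 0.05 for bone against liver (14.1% of all genes), bone against parental (8.17%) and liver against parental (7.49%). The shares of all genes called at an adjusted p under 0.05 were 0.190%, 0.135% and 0.0159%.

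The median over the chromosome that holds Hoxa was also higher in bone than in liver, a comparison chosen after these values were seen. Over the 606 tested genes that RefSeq places on chromosome 6, which holds Hoxa, the median bone minus liver difference was 0.18, the highest of the 20 chromosomes compared, and the groups did not overlap with bone higher for 42.9% of them, against 21.2% of all genes. Against parental cells, the medians of chromosome 6 were 0.11 in bone and -0.09 in liver. Among the 20 tested genes nearest to Hoxa, 10 on each side, the median bone minus liver difference was 0.25. Of these, 9 were higher in bone without overlap and 4 lower (21.2% and 25.9% of all genes). Their medians against parental cells were 0.007 in bone and -0.21 in liver, so the gap near Hoxa lay mostly in lower liver values. The neighbours were not uniform: Tax1bp1 was 0.96 higher in bone on the log2 scale, while Jazf1 and Creb5 had -0.95 and -0.87. The median was 0.07 for chromosome 11 (Hoxb) and 0.07 for chromosome 15 (Hoxc), and -0.14 for chromosome 2 (Hoxd). At the other end, the X chromosome had -0.51, with 2.70% of its genes higher in bone without overlap. The part of the shift in the chromosome 6 median in the Hoxa values was not tested.

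**Figure D5:**
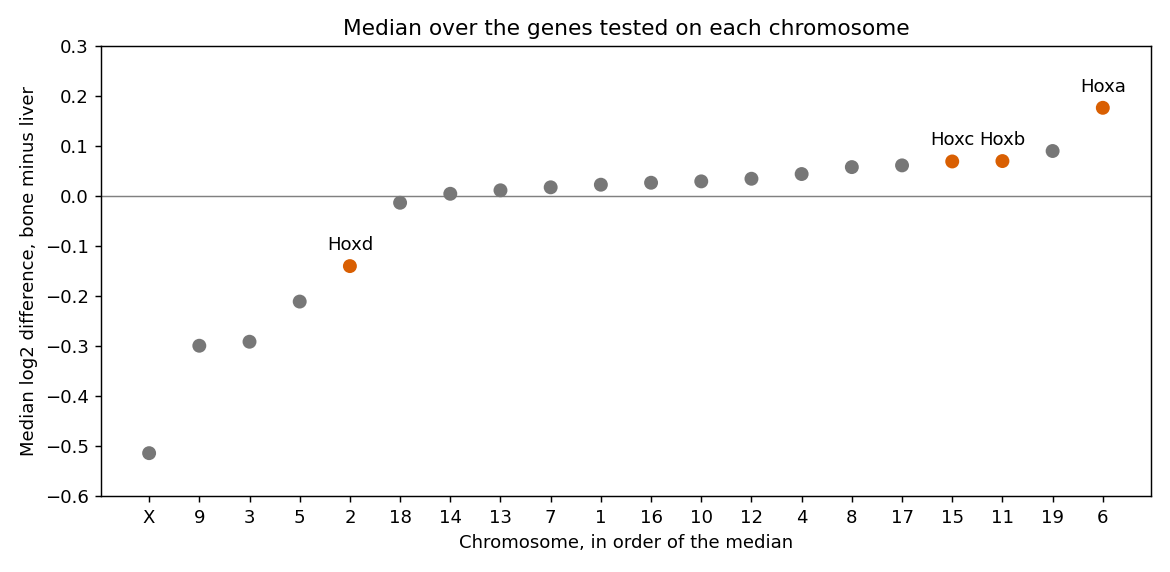
Median bone minus liver difference (log2) over the genes tested on each chromosome, in order, with the chromosomes of the 4 Hox clusters in orange. Chromosome 6, which holds Hoxa, is the highest at 0.18, and the X chromosome the lowest at -0.51.

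The partners and regulators of Hox proteins were then read from lists that were also chosen with earlier results known. Their counts of genes on are likewise given without the share of all genes above the bound, which was not counted. Among 10 measured TALE homeodomain cofactors, which bind DNA together with Hox proteins, Pbx2, Pbx3, Pknox1 and Tgif1 were on in all 5 arrays. Pbx3 had 267 in parental cells, 247 and 228 in the bone passages and 296 and 255 in the liver passages. Meis1, the partner of Hoxa9 in leukaemia, read 16 to 26.3 and Meis2 read 6.7 to 14.3, both below the bound throughout. Limma called 0 of 8 tested cofactors in each of the 3 comparisons (1, 0 and 0 at an unadjusted p under 0.05 for bone against liver, bone against parental and liver against parental, beside 14.1%, 8.17% and 7.49% of all genes).

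Genes of Polycomb repressive complex 2, which places the silencing mark on histone H3, were on in all 5 arrays for 10 of 11 members. Its enzyme gene Ezh2 had 1310 in parental cells, 1079 and 1440 in bone passages 3 and 6 and 940 and 941 in liver passages 1 and 3 (bone minus liver 0.40 ± 0.21; limma adjusted p = 0.443). Of Polycomb repressive complex 1, 16 of 17 genes were on in all arrays, with Bmi1 at 870 to 1305. All 14 measured trithorax and demethylase genes were on in all 5 arrays. Kmt2a (MLL), a methyltransferase that keeps Hox genes active, had 167 in parental cells, 120 and 97.5 in the bone passages and 162 and 158 in the liver passages (bone minus liver -0.50 ± 0.19; limma adjusted p = 0.323). Its partner Men1 read 163 to 267. Limma called 0 of 11, 0 of 17 and 0 of 14 members in each comparison, with 0, 0 and 3 at an unadjusted p under 0.05 for bone against liver, 0, 1 and 0 for bone against parental, and 0, 1 and 1 for liver against parental. The shares of all genes at that level were 14.1%, 8.17% and 7.49%.

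Of the genes that act upstream of Hox clusters, the caudal genes Cdx1, Cdx2 and Cdx4 were below the bound (0.6 to 14.5), and the retinoic acid receptor genes Rara, Rarb and Rarg were on in all arrays. Limma called 0 of 10 tested members in each comparison (1, 1 and 0 at an unadjusted p under 0.05, beside 14.1%, 8.17% and 7.49% of all genes). Among 51 other homeobox genes measured, 13 were on in all 5 arrays and 35 in none. Limma called 0 of 22 tested (5, 4 and 2 at an unadjusted p under 0.05, beside 14.1%, 8.17% and 7.49% of all genes). Msx1, a homeobox gene of mammary and limb buds, was the 1 member with a 2-fold gap in all pairs of bone and liver arrays (1.06% of all genes). It had 146 in parental cells, 81.3 and 72.3 in the bone passages and 185 and 194 in the liver passages (bone minus liver -1.15 ± 0.18; limma adjusted p = 0.0931). The bone arrays were below all others.

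The cells carried the markers of mammary carcinoma: 13 of 14 epithelial genes were on in all arrays, with Krt18 at 5918 to 7880 and Epcam at 3761 to 4384, and Krt19 was the exception at 1.5 to 3.3. Erbb2 read 212 to 342. Of the markers of other cells, the blood and lymphoid list had 0 of 6 on and the hepatocyte list 0 of 6, with Alb at 2.4 to 15.8. The adipocyte list had 0 of 3 on. The osteoblast list had 1 of 4 on in any array, Sp7 in bone passage 3 (58.4, against 34.3 to 56.5 elsewhere). The endothelium list had 1 of 6, Kdr, on in bone passage 3 (75.2) and liver passage 1 (43.8). Fibroblast markers had 2 of 9 on in all arrays (Pdgfra and Postn), with the collagen genes Col1a1, Col1a2 and Col3a1 below the bound, and a summed intensity of 340 in parental cells, 203 to 297 in bone and 451 to 460 in liver. Macrophage markers had 7 of 10 on in liver passage 1 against 2 or 3 on the other arrays, with C1qa at 56.1 there and 0.9 to 1.2 elsewhere. Their summed intensity was 535 in parental cells, 733 to 1196 in bone and 760 to 945 in liver. Cd14 read 336 in parental cells, 450.2 and 928.2 in bone and 212.2 and 242 in liver. Without it the other 9 markers summed to 199 in parental cells, 283 and 267 in bone and 733 and 518 in liver. The order of bone and liver thus depends on leaving Cd14 out, which was chosen after the values were seen. Csf1r and Cd68 were high in liver passage 3 too, at 220 and 172, against 67.6 and 52.1 in parental cells. In that array Csf1r, Cd68, Fcgr3, Lyz2, Mpeg1 and Clec4f were above both bone arrays. Adgre1 (27.6) and C1qb (11.8) were below both, and C1qa lay between them. In liver passage 1, where macrophage markers were most often on, Hoxa3, Hoxa4 and Hoxa5 were at their lowest of the 4 sub-line arrays. The part of other cells in those values was not tested. In such bulk RNA, fewer cells that express a gene and less RNA per cell cannot be told apart.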

How the data were processed

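RNA of 5 samples was measured on 1-colour Affymetrix mouse arrays, after purification on RNeasy columns and biotin labelling of 5 ug, per the labels' protocols. The authors deposited 1 linear intensity per probe set on 45101 probe sets. RMA is named in the submitters' processing notes, with its version not given in the sources used here, yet the values are not on the log2 scale of RMA. Further steps are not given in the sources used here. Gene names came from the platform annotation (34945 probe sets with 1 gene, 932 with several) and RefSeq (GRCm38.p6, names, order and promoters).

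The deposited intensities were taken to log2(intensity + 16) and not normalized again. Each gene was read from its probe set of highest mean. For tests, probe sets needed a highest intensity of at least 25.1, the median of all values, which left 12609 genes. Tests used limma 3.58.1 in R 4.3.3 (lmFit, eBayes, 2 residual and 4.20 prior degrees of freedom), and the fit was tested on simulated data. The single parental array has no spread of its own and was given that of the passages, and the number of arrays limits the precision.

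The Hox genes, lists and tests were chosen with earlier results of these data known. Every measured Hox gene is named; values per array are given for those on in at least 1 array, and the other measured genes by range. The macrophage sum without Cd14 was added after the values were seen. Of other lists, members called or at least 2-fold apart in every pair, flanking genes and a few fixed genes (Ezh2, Bmi1, Kmt2a, Men1 and Meis1 among them) are named. Further genes given here, namely Hoxc6, Hoxc9 and Hoxb3 in detail, Tax1bp1, Jazf1, Creb5, Pbx3 and single markers, were chosen after their values were seen. Alternatives were the filter, centring, quantile normalization, probe set averaging, pseudocounts of 1 and 64, a mean-variance trend, the stage as a block, each sub-line array left out, a 3-fold limit and 4 other bounds for on.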

Additional observations from a re-analysis of the deposited data

Results flagged for a closer look

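Hoxa4 lay above the parental array in both bone passages (0.53 and 0.27 on the log2 scale, passages 3 and 6) and below it in both liver passages (-0.69 and -0.28, passages 1 and 3). The difference between the sub-lines, bone minus liver, was 0.889 and was tested in the comparison of bone and liver, where it did not pass (limma adjusted p = 0.189). The share of all genes tested with such opposite directions was not counted, here or for Hoxb3 below, so the pattern has no background beside it.

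Hoxb3, on the probe set that reached the filter, lay below the parental array in both bone passages (-0.14 and -0.24) and above it in both liver passages (0.14 and 0.96), and its bone minus liver difference was -0.742 (limma adjusted p = 0.338). It reached the filter on liver passage 3 only, where it is high. All its intensities were below the bound for on, and its second probe set gave -0.60 between bone and liver and 0.01 between liver and parental cells.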

How the results depend on the processing

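Limma called 0 Hox genes in each comparison of lines under every alternative that left out no sub-line array, with 1 to 3 at an unadjusted p under 0.05 in each. In the main setting, 14.1% of all genes were at that unadjusted level for bone against liver. The share was 8.17% for bone against parental cells and 7.49% for liver against parental cells. With stage (early, final) as a replicate block over the 4 sub-line arrays, 0 of 12 Hox genes were called for bone against liver, with 2 at an unadjusted p under 0.05. Stages were matched by the study's early and final labels and not by shared replicates, and the fit needs both lines, so the comparisons with parental cells have no such fit.

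The number of Hoxa genes on in parental cells, and on in all 5 arrays, was 3 in the main setting. Both counts were 4 with the 90th percentile as the bound (Hoxa2 joined), 1 with a bound of 100 and 1 with the 75th percentile of all probe sets (Hoxa5 in both), and 0 with the brightest tissue-restricted gene as the bound. Averaging all probe sets of a gene, also of the genes that set the bound, gave 2, Hoxa2 and Hoxa5, so that Hoxa3 and Hoxa4 dropped out. The counts for Hoxb, Hoxc and Hoxd were 0 under each of these alternatives. Hox genes with a 2-fold gap in all pairs numbered 0, and 1 (Hoxc9) with a pseudocount of 1 in bone and in liver against parental cells. With that pseudocount 528 of all genes had such a gap in bone and 456 in liver, against 270 and 227 in the main setting. With 1 sub-line array left out, Hox genes with such a gap numbered 0 to 1 in each comparison (Hoxc9 without bone passage 3, Hoxa9 without bone passage 6 or liver passage 1, Hoxb3 without liver passage 1). With fewer pairs, more of all genes had such a gap too. Against parental cells they numbered 587 and 553 in bone without passages 3 and 6, and 491 in liver without passage 1. Between bone and liver they numbered 256 without liver passage 1, against 134 in the main setting. The median range of the 5 genes that were on, 1.10, was 0.627 with a pseudocount of 64, 0.443 with probe sets averaged and 0.524 to 1.10 with 1 array left out (0.524 without bone passage 3, 0.812 without liver passage 1). Most of these genes lie near the bound, which limits what can be said of their state.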
